A study of Mus musculus with 24 samples.

Results

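Complement genes were followed as 9 of the 32561 genes measured in mouse aorta: C1qa, C1qb and C1qc, the chains of the initiating protein C1q; C3, C4b, Cfb and Cfp, which build or hold the enzymes that cleave C3; and C3ar1 and C5ar1, the receptors of the released peptides. Members were found by gene symbol in the deposited expression table, and all 9 were present, each in 1 row. The series asked how renal failure, sex and a changed Bmp2 gene alter the aorta, and it holds 24 aortas of mice congenic on 129S1/SvlmJ, with 4 animals in each of 6 groups. Affected mice carried 2 copies of a recessive Klotho mutation (Kl/Kl) and had renal failure, and controls had healthy kidneys. The groups were Kl/Kl and control males homozygous for the Bmp2 allele named ∆UCS (45 to 48 days old in both), Kl/Kl and control males with intact Bmp2 (45 to 48 and 44 to 48 days), and Kl/Kl and control females with intact Bmp2 (45 to 53 days in both). Of the 12 controls, 11 were heterozygous for Klotho and 1, the Bmp2+/+ control male replicate 1, was wild type. No female ∆UCS group was analysed here. The Klotho mutation is in every cell of the mouse, so an aorta of a Kl/Kl animal reflects the whole diseased body as well as the vessel.

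Complement is a protein cascade of innate immunity. C1q binds antibody, dying cells and other targets and starts the classical pathway, whose proteases cleave C4 and C2 into an enzyme that cuts C3. Factor B (Cfb) forms the matching enzyme of the alternative pathway, which properdin (Cfp) stabilises, and the small fragments C3a and C5a act on G protein-coupled receptors encoded by C3ar1 and C5ar1. In many tissues macrophages make C1q, and liver makes most of the C3, C4 and factor B of the blood.

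The members lie on 5 chromosomes of mm39, all on the minus strand. C1qb (ENSMUSG00000036905, chromosome 4, 136607440 to 136613499), C1qc (ENSMUSG00000036896, 136617115 to 136620377) and C1qa (ENSMUSG00000036887, 136623228 to 136626115) are neighbours. C4b (ENSMUSG00000073418, chromosome 17, 34947354 to 34962857) and Cfb (ENSMUSG00000090231, 35075350 to 35081495) share chromosome 17 with C3 (ENSMUSG00000024164, 57510970 to 57535137). C3ar1 (ENSMUSG00000040552) is on chromosome 6 at 122824097 to 122833121, C5ar1 (ENSMUSG00000049130) on chromosome 7 at 15980668 to 15993466, and Cfp (ENSMUSG00000001128) on chromosome X at 20791693 to 20797795. C4b has a near-identical copy, C4a, and Cfb lies beside C2, and how reads matching several genes were counted is not given in the sources used here, so the values of C4b and Cfb carry that uncertainty.

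RefSeq's promoter table (build GRCm38.p6) matched 6 of the 9 members, namely C1qb, C1qc, C3, C3ar1, C5ar1 and Cfp. The C1q promoters and that of C3ar1, the member that passed the test in every stratum, are shown because their genes moved with the Klotho genotype in these libraries. Each is the 250 bases before the start site, on the minus strand, at chr4:136886201-136886450 for C1qb, chr4:136892915-136893164 for C1qc and chr6:122856158-122856407 for C3ar1. Capitals mark the PU.1 core GAGGAA on either strand in the C1q promoters and the AP-1 site TGANTCA in that of C3ar1.
C1qb: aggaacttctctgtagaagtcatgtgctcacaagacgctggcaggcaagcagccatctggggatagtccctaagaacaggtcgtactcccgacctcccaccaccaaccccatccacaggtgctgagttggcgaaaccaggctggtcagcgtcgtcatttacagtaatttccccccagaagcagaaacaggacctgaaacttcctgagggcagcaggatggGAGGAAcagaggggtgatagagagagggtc
C1qc: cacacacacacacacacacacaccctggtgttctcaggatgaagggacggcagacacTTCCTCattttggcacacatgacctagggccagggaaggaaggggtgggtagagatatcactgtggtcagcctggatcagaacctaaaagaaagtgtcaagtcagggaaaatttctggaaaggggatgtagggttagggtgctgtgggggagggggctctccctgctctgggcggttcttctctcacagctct
C3ar1: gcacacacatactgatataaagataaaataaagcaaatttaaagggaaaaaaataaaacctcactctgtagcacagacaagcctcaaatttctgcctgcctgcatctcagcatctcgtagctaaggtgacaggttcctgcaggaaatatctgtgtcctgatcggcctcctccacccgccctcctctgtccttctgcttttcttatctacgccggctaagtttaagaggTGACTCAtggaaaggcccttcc
The PU.1 core, the short stretch bound by a factor of myeloid cells, begins at −30 from the start site in C1qb and, on the other strand, at −193 in C1qc. The search ran from 250 bases before to 50 bases after the start site, and so past the printed stretch. The PU.1 core also occurs in Cfp, at 7 and 23, which lie after the start site, and 28.3% of the 32851 promoters in the table hold it. The AP-1 site begins at −22 in C3ar1, and 7.81% of promoters hold one. Of the other motifs searched on both strands, C/EBP (TTNNGCAA, 10.8% of promoters) was found in C3 and ISRE (GAAANNGAA, 8.56%) in C5ar1, while GAS (TTCNNNGAA, 8.3%) and NF-kB (GGANTTNCC, 3.95%) were in none of the 6 windows. A match describes letters in a window and not a used site.

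Libraries held an estimated 20589000 to 61095000 gene reads each, and mitochondrial genes took 40.2% to 61.2% of the TPM (a level scaled for gene length and library depth) of a library. In the Bmp2+/+ Kl/Kl male replicate 1 and the Bmp2+/+ Kl/Kl female replicate 2, the X-linked Xist and the Y-linked Ddx3y went against the labelled sex. Xist stood at 11.4 TPM and Ddx3y at 0.0138 TPM in the library labelled male, and in that labelled female Xist stood at 0.0281 TPM and Ddx3y at 4.81 TPM. Their Spp1, which encodes osteopontin, was 0.459 and 0.347 TPM, against 35.3 to 286 TPM in the other 10 Kl/Kl libraries and 0.199 to 5.54 TPM in the 12 controls. The main fit therefore used the other 22 libraries, and calls of members and lists, and correlations between members, are also given for all 24 as labelled. Kl itself had 0 to 30 estimated reads per library, too few to check the Klotho labels, and Bmp2 had 72 to 479. All ∆UCS libraries were in one set of library names, all female libraries in the other and Bmp2+/+ male groups in both, so the library set was a term of the fit. Smooth muscle markers summed to 103 to 644 TPM and endothelial markers to 11.5 to 78.0 TPM in the 22 libraries, so the labelled tissue was present.

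Changes are given on a log2(TPM + 1) scale from limma with Benjamini-Hochberg adjustment over all tested genes, where an adjusted p of at most 0.05 is a call. TPM was scaled here by the genomic span of a gene, so it compares 1 gene between libraries and not genes with each other. Set on reads per kilobase of exon and scaled for depth (RPKM), the median level over the 22 libraries was highest for C3, at 94.9, followed by C1qb at 40.9, C1qa at 35.8, C1qc at 16.8, C4b at 16.5, Cfb at 9.12 and Cfp at 8.97. C5ar1 and C3ar1 were lowest on this scale, at 1.62 and 1.34.

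C1qa, the A chain of C1q, was 38.1, 22.1, 20.9 and 24.1 TPM in the 4 ∆UCS Kl/Kl males, against 7.20, 7.47, 9.52 and 12.9 TPM in ∆UCS control males. In Bmp2+/+ males it was 50.5, 13.1 and 33.2 TPM in Kl/Kl replicates 2, 3 and 4, against 16.5, 6.04, 19.0 and 7.21 TPM in controls. In females it was 36.7, 31.3 and 10.2 TPM in Kl/Kl replicates 1, 3 and 4, against 6.03, 8.56, 7.29 and 5.41 TPM in controls. The ∆UCS and the female groups did not overlap, whereas in Bmp2+/+ males Kl/Kl replicate 3 lay below control replicates 1 and 3. That Kl/Kl library and these controls were in the same set of library names. Control replicates 2 and 4 were in the other set, and they lay below control replicates 1 and 3 for each of the 9 members. Overlap takes no account of library set, and the part of the set in this was not tested. The 2 libraries that went against their labelled sex had 10.3 TPM each.

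C1qb, the B chain, was 18.2, 10.7, 11.9 and 11.8 TPM in ∆UCS Kl/Kl males, against 3.41, 3.49, 4.36 and 6.77 TPM in ∆UCS control males. In Bmp2+/+ males it was 25.7, 8.44 and 22.6 TPM in Kl/Kl, against 7.65, 2.71, 9.01 and 3.46 TPM in controls, and these groups overlapped through Kl/Kl replicate 3. Female Kl/Kl aortas had 20.2, 22.9 and 7.68 TPM and female controls 3.14, 3.83, 3.39 and 2.58 TPM, with no overlap. C1qc, the C chain, averaged 21.6 ± 7.36 TPM in ∆UCS Kl/Kl and 7.48 ± 2.73 TPM in ∆UCS control males (SD, n = 4 each). Its Kl/Kl and control means were 24.9 ± 16.8 (SD, n = 3) and 9.70 ± 5.06 TPM (SD, n = 4) in Bmp2+/+ males and 20.8 ± 12.8 (SD, n = 3) and 5.62 ± 1.45 TPM (SD, n = 4) in females.

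Of the C1q chains, C1qb rose in Kl/Kl females by 1.96 on the log2 scale (SE 0.40, limma adjusted p = 0.00777). Without Kl/Kl female replicate 1 the adjusted p of C1qb there was 0.0714, and without replicate 3 it was 0.0823. C1qb changed by 1.37 (SE 0.37, adjusted p = 0.0763) in Kl/Kl ∆UCS males and by 1.48 (SE 0.40, adjusted p = 0.0988) in Kl/Kl Bmp2+/+ males, neither past the threshold. The change of C1qb in Bmp2+/+ males passed with median-of-ratios scaling (adjusted p = 0.0222) and with limma voom (adjusted p = 0.0326). In the main fit C1qa and C1qc passed in no single stratum, with changes of 1.04 to 1.63 and adjusted p-values of 0.0568 to 0.47. C1qa passed in females with median-of-ratios scaling (adjusted p = 0.0461). With limma and a filter of 5 TPM, C1qa passed in females (adjusted p = 0.0486) and in ∆UCS males (adjusted p = 0.0406). C1qb passed in ∆UCS males with that filter (adjusted p = 0.0386). Some fits that left out 1 library also called C1qa or C1qc in a stratum. Averaged over the 3 strata, all 3 chains rose, C1qa by 1.40 (SE 0.25, adjusted p = 0.0012), C1qb by 1.60 (SE 0.23, adjusted p = 0.000106) and C1qc by 1.32 (SE 0.29, adjusted p = 0.004). Bulk RNA does not separate more cells that make C1q from more C1q RNA in each cell.

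**Figure D1:**
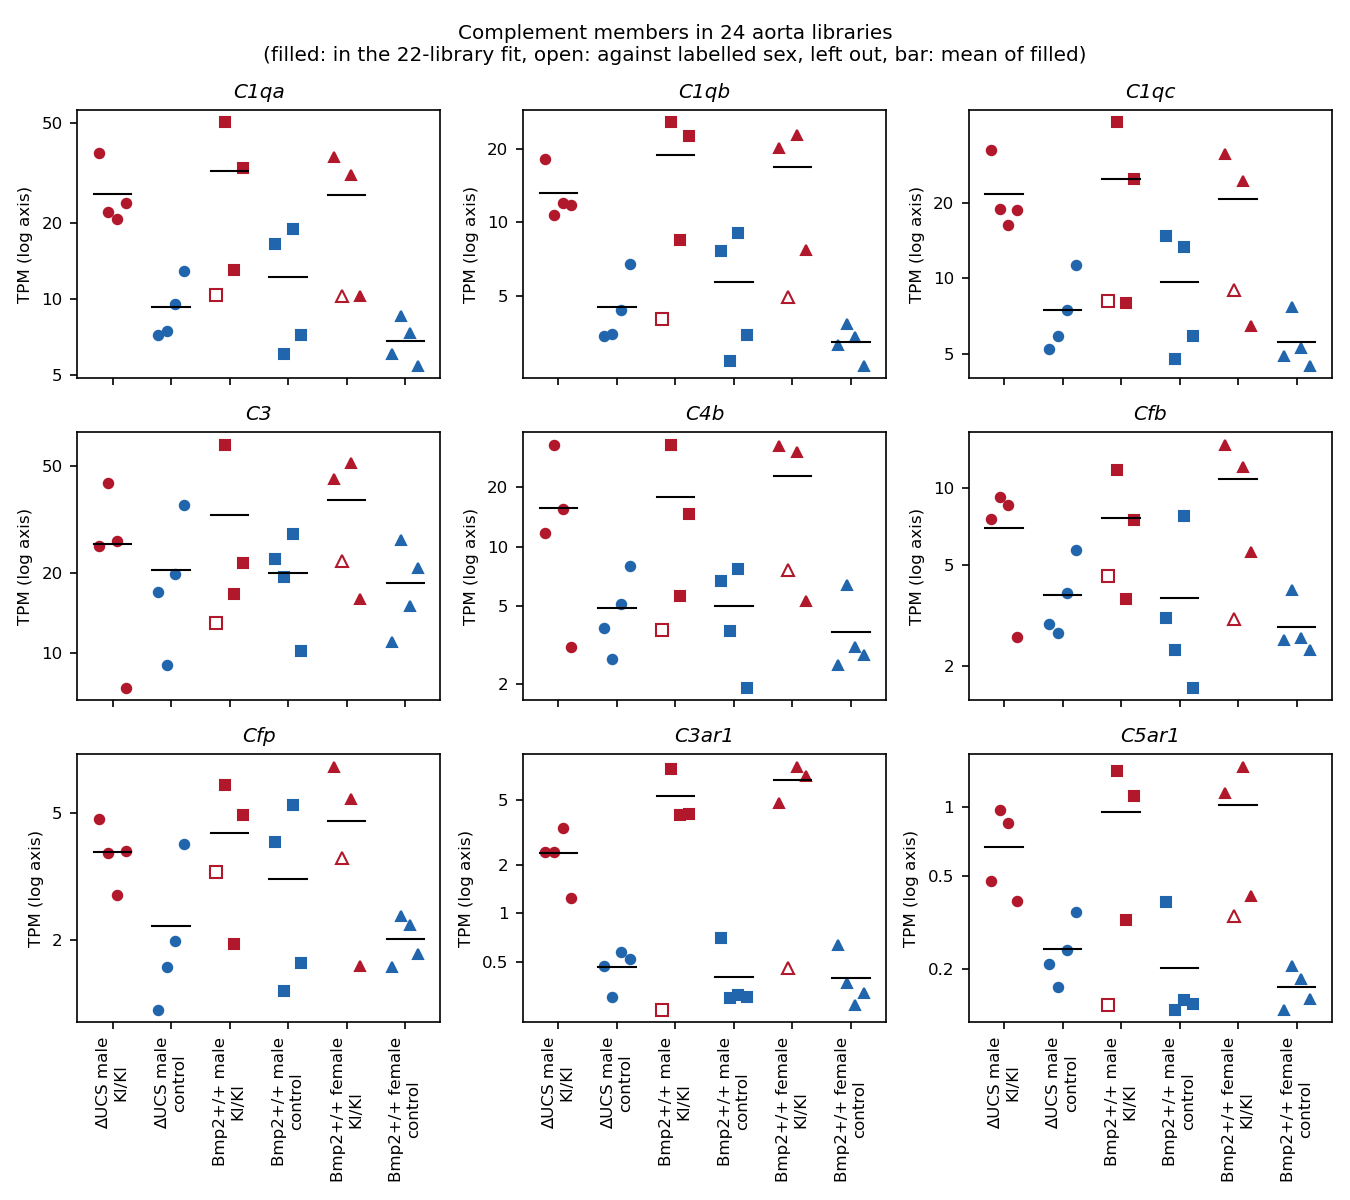
TPM of the 9 members in each library on log axes, by group, with filled symbols for the 22 libraries of the main fit, open symbols for the 2 libraries against their labelled sex and bars for group means of the filled symbols. C3ar1 separates Kl/Kl from control libraries in each stratum, while C3 and Cfp overlap in each.

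C3, the central protein of the cascade, overlapped between Kl/Kl and control aortas everywhere. It was 25.1, 43.4, 26.3 and 7.41 TPM in ∆UCS Kl/Kl males, against 17.0, 9.05, 19.8 and 35.8 TPM in ∆UCS control males. In Bmp2+/+ males it was 60.4, 16.7 and 21.7 TPM in Kl/Kl, against 22.5, 19.3, 27.9 and 10.2 TPM in controls, and in females 44.8, 51.7 and 16.0 TPM in Kl/Kl, against 10.99, 26.6, 15.05 and 20.8 TPM in controls. C3 was called in no comparison: its changes were 0.23 (SE 0.52, adjusted p = 0.791) in ∆UCS males, 0.44 (SE 0.57, adjusted p = 0.827) in Bmp2+/+ males, 0.90 (SE 0.56, adjusted p = 0.307) in females and 0.53 (SE 0.32, adjusted p = 0.218) on average. In ∆UCS males its sign changed with the scaling, to −0.11 when libraries were scaled by median-of-ratios and to −0.14 in the voom fit of estimated reads.

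C4b, which encodes complement C4, ranged from 3.08 to 32.8 TPM in ∆UCS Kl/Kl and from 2.68 to 7.94 TPM in ∆UCS control males. Its values were 33.1, 5.62 and 14.6 TPM in Bmp2+/+ Kl/Kl males and 1.90 to 7.68 TPM in their controls, and 32.6, 30.3 and 5.27 TPM in Kl/Kl females and 2.48 to 6.35 TPM in theirs. One Kl/Kl library in each stratum, ∆UCS replicate 4, Bmp2+/+ male replicate 3 and female replicate 4, lay within the control range of C4b. The stratum changes of 1.23 to 2.07 had adjusted p-values of 0.0962 to 0.481. On average C4b rose by 1.55 (SE 0.38, adjusted p = 0.0075), with an adjusted p of 0.0513 without Bmp2+/+ Kl/Kl male replicate 4. The near copy C4a had mean levels under 0.1 TPM in all groups.

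Cfb, the catalytic part of the alternative-pathway convertase, averaged 6.96 ± 2.98 TPM in ∆UCS Kl/Kl and 3.79 ± 1.36 TPM in ∆UCS control males (SD, n = 4 each). It averaged 7.64 ± 4.05 (SD, n = 3) and 3.70 ± 2.76 TPM (SD, n = 4) in Kl/Kl and control Bmp2+/+ males, and 10.8 ± 4.71 (SD, n = 3) and 2.85 ± 0.758 TPM (SD, n = 4) in Kl/Kl and control females. Only the female groups did not overlap. Cfb passed in no stratum (adjusted p = 0.373 in ∆UCS males, 0.495 in Bmp2+/+ males and 0.0582 in females), although in females it passed with median-of-ratios scaling (adjusted p = 0.0305) and with limma voom (adjusted p = 0.0443). It rose by 1.01 (SE 0.24, adjusted p = 0.00619) on average.

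Cfp, the X-linked gene of properdin, was 2.78 to 4.78 TPM in ∆UCS Kl/Kl and 1.21 to 4.00 TPM in ∆UCS control males. In Bmp2+/+ males it was 1.96 to 6.14 TPM in Kl/Kl and 1.39 to 5.30 TPM in controls, and in females 1.67 to 6.99 TPM in Kl/Kl and 1.66 to 2.38 TPM in controls. These ranges overlapped in all 3 strata, and the average change of 0.57 (SE 0.22) had an adjusted p of 0.0557.

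C3ar1, the C3a receptor, had the largest ratio of Kl/Kl to control means among the 9 members in each stratum. It was 2.39, 2.40, 3.38 and 1.24 TPM in ∆UCS Kl/Kl males, against 0.469, 0.301, 0.577 and 0.517 TPM in ∆UCS control males. In Bmp2+/+ males it was 7.76, 4.04 and 4.14 TPM in Kl/Kl, against 0.698, 0.297, 0.310 and 0.303 TPM in controls. In females it was 4.77, 8.08 and 7.04 TPM in Kl/Kl, against 0.630, 0.371, 0.270 and 0.323 TPM in controls. No control library reached the lowest Kl/Kl library of its stratum, and the ratio of means was 5.04 in ∆UCS males, 13.2 in Bmp2+/+ males and 16.6 in females. The library labelled Kl/Kl male replicate 1 had 0.252 TPM and the one labelled Kl/Kl female replicate 2 had 0.457 TPM, the male below all 12 controls and the female within their range.

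C3ar1 rose in Kl/Kl aortas of each stratum, by 1.16 (SE 0.21, adjusted p = 0.00743) in ∆UCS males, 2.09 (SE 0.23, adjusted p = 2.56e-05) in Bmp2+/+ males and 2.43 (SE 0.22, adjusted p = 1.29e-06) in females. The average rise of C3ar1 was 1.89 (SE 0.13, adjusted p = 5.23e-09). Since 1 was added to values below 1 TPM in controls, this scale understates the change. Limma voom on estimated reads does not add 1 to TPM, but it also scales libraries by median-of-ratios, so it differs in more than the constant. With voom C3ar1 rose by 1.93 (adjusted p = 0.00544), 3.50 (adjusted p = 1.64e-05) and 3.55 (adjusted p = 9.07e-06) in the same order of strata. With all 24 libraries as labelled the changes on the log2(TPM + 1) scale were 1.16, 1.56 and 1.84, with adjusted p-values of 0.24, 0.589 and 0.15, and the average rise was 1.52 (adjusted p = 0.00263).

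C5ar1, the C5a receptor, was low throughout, at 53 to 751 estimated reads per library. It was 0.478, 0.967, 0.850 and 0.390 TPM in ∆UCS Kl/Kl males, against 0.210, 0.166, 0.241 and 0.351 TPM in ∆UCS control males. In Bmp2+/+ males it was 1.42, 0.324 and 1.11 TPM in Kl/Kl, against 0.387, 0.133, 0.147 and 0.141 TPM in controls, and in females 1.15, 1.49 and 0.411 TPM in Kl/Kl, against 0.133, 0.206, 0.180 and 0.147 TPM in controls. The ∆UCS and female groups did not overlap, and Kl/Kl replicate 3 of Bmp2+/+ males lay below control replicate 1. In the main fit C5ar1 passed in no stratum (changes 0.41 to 0.75, adjusted p = 0.0559 to 0.275) and rose by 0.61 (SE 0.12, adjusted p = 0.00181) on average. With median-of-ratios scaling it passed in Bmp2+/+ males (limma adjusted p = 0.0495) and in females (adjusted p = 0.0238). In females it also passed with no library set in the fit (adjusted p = 0.0467). With limma voom on estimated reads it rose by 2.01 (adjusted p = 0.0115) in Bmp2+/+ males and 1.92 (adjusted p = 0.0106) in females, and changed by 1.05 (adjusted p = 0.153) in ∆UCS males.

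Counted together, C3ar1 alone of the 9 members rose in Kl/Kl ∆UCS males, where 0.537% of the 9861 genes tested were called higher. C3ar1 alone rose in Kl/Kl Bmp2+/+ males (1.04% of genes called higher), and C1qb and C3ar1 rose in Kl/Kl females (2.61%). On average over the strata 7 rose, all but C3 and Cfp, where 23.7% of genes were called higher. No member fell. The filter of 1 TPM in 4 libraries was met by all 9, but C3ar1 and C5ar1 met it only through Kl/Kl libraries (10 and 4 libraries, 0 of 12 controls), so these counts are a description. With no filter and 32561 genes, 1, 1, 2 and 7 members were called in the same order, against 0.166%, 0.384%, 2.99% and 12.4% of genes.

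Taken over all 24 libraries as labelled, 0 members passed in each stratum, and 0.0% of 9933 genes were called higher in each. At an unadjusted p under 0.05 the counts of members there were 4 in ∆UCS males, 4 in Bmp2+/+ males and 8 in females, and limma voom on the same libraries also called 0. On average 8 members rose in these 24 libraries, against 15.5% of genes. C1qa rose by 1.24 (adjusted p = 0.00763), C1qb by 1.35 (adjusted p = 0.00498) and C1qc by 1.17 (adjusted p = 0.0139). C4b rose by 1.36 (adjusted p = 0.0215), Cfb by 0.88 (adjusted p = 0.0234), Cfp by 0.57 (adjusted p = 0.0484) and C5ar1 by 0.50 (adjusted p = 0.0173). C3 changed by 0.43 (adjusted p = 0.278). With the deposited scaling the median change of all tested genes was 0.26 in Kl/Kl ∆UCS males, 0.09 in Bmp2+/+ males, 0.29 in females and 0.22 on average. Under median-of-ratios scaling these medians were 0.02, −0.02, −0.02 and 0.00. That scaling brings them near 0 by construction, so it cannot tell whether the shift comes from the scaling. With it 1, 3, 5 and 7 members were called, against 0.72%, 1.54%, 2.26% and 8.87% of genes. The average comparison called 2337 genes higher and 351 lower with the deposited scaling, and 875 higher and 1059 lower with median-of-ratios scaling. Limma voom on estimated reads called 1, 3, 4 and 7 members, against 0.72%, 1.39%, 2.08% and 6.78% of 22071 genes. The median change of the 9 members was 1.16, 1.04, 1.54 and 1.32 with the deposited scaling and 0.91, 0.88, 1.13 and 1.01 with median-of-ratios scaling.

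Every Kl/Kl library lay above every control library for 5 members in ∆UCS males, C1qa, C1qb, C1qc, C3ar1 and C5ar1, as did 8.2% of tested genes. This held for C3ar1 alone in Bmp2+/+ males, against 5.77% of genes, and for C1qa, C1qb, C3ar1, C5ar1 and Cfb in females, against 28.3%. With the 24 libraries as labelled the counts were 5 in ∆UCS males, against 8.17% of genes, 0 in Bmp2+/+ males, against 0.775%, and 3 in females, against 11.7%.

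**Figure D2:**
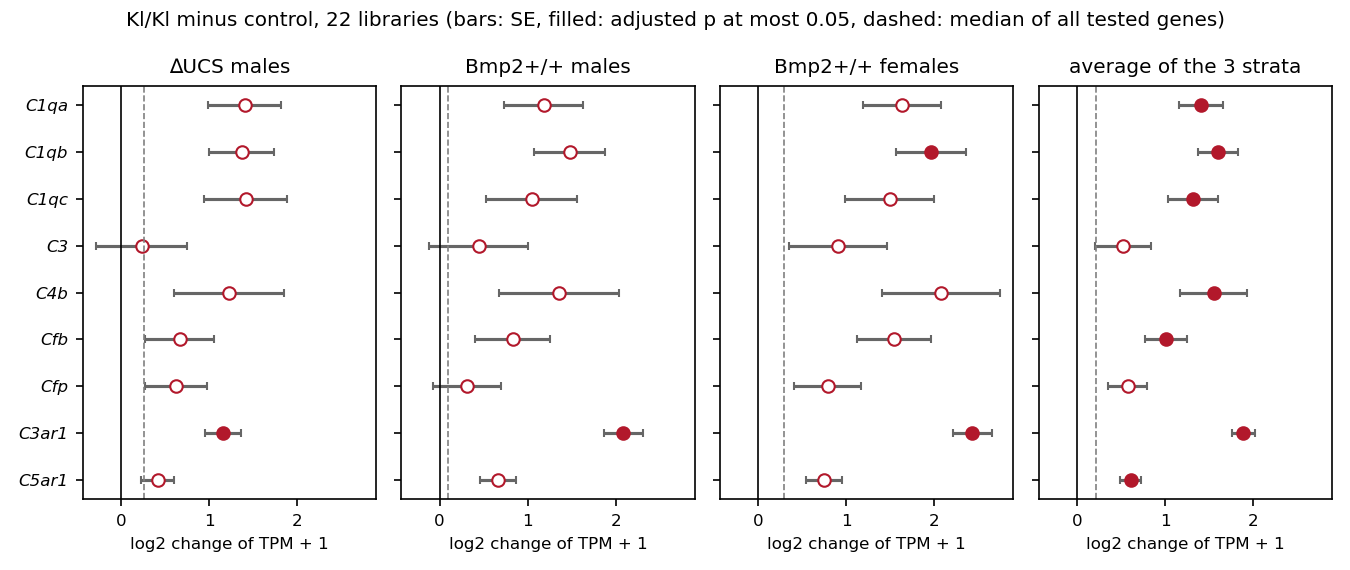
Log2 change of TPM + 1 in Kl/Kl against control aortas for the 9 members in each stratum and on average, from 22 libraries, with SE bars, filled symbols for an adjusted p of at most 0.05 and a dashed line at the median of all tested genes. C3ar1 is filled in all 4 panels, C1qb in females and on average, and C3 and Cfp in none.

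The Bmp2 allele was compared within males. Only Bmp2+/+ males were in both library sets, so the set term of this comparison rests on them alone. In control males ∆UCS minus Bmp2+/+ differences ran from −0.58 for Cfp to 0.05 for C5ar1, 0 of the 9 members were called and 0 had an unadjusted p under 0.05. Within library set 1 alone, with 4 ∆UCS and 2 Bmp2+/+ control males, 8 members were tested and 0 were called. There 1 member had an unadjusted limma p under 0.05, as did 483 of 8998 genes. In Kl/Kl males the differences were negative for all 9 members, from −0.99 for C3ar1 to −0.18 for C1qc, and 0 were called. Across all 9861 genes limma called 0 in either comparison (0.0%), with 216 and 180 genes at an unadjusted p under 0.05. Positive differences made up 20.5% of all genes in control males (median −0.17) and 48.0% in Kl/Kl males (median −0.01). C3ar1 was 1.24 to 3.38 TPM in ∆UCS Kl/Kl males, below the 4.04 to 7.76 TPM of the Bmp2+/+ Kl/Kl males, and 1.06% of tested genes had every ∆UCS library below every Bmp2+/+ library in this way. Its difference of −0.99 (SE 0.23) had an unadjusted limma p of 0.00048 and an adjusted p of 1, so it did not pass over all genes.

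The C3ar1 difference in Kl/Kl males was −0.98 with median-of-ratios scaling (adjusted p = 0.546) and −1.38 with limma voom (adjusted p = 0.98). Within library set 1 alone, where 4 ∆UCS and 2 Bmp2+/+ Kl/Kl males could be compared, it was −1.03. Leaving out 1 library moved it between −1.24, without Bmp2+/+ Kl/Kl male replicate 3, and −0.70, without replicate 2. With the 24 libraries as labelled it was −0.73 (unadjusted p = 0.168), and the groups overlapped through the library labelled Kl/Kl male replicate 1. Of the 10 macrophage markers tested, 9 were also at negative differences in Kl/Kl males, from −1.58 for Mpeg1 to −0.31 for Csf1r, and Laptm5 was at 0.23. None of the 10 was called (adjusted p = 1), and their part in the C3ar1 difference was not tested. The Klotho effect on C3ar1 was 0.93 smaller on the log2 scale in ∆UCS than in Bmp2+/+ males (difference −0.93, SE 0.31, unadjusted p = 0.00682, adjusted p = 0.954). For this difference of effects, and for that between sexes, 0 of 9861 genes were called (0.0%), with 204 and 141 at an unadjusted p under 0.05. The female minus male difference of the Klotho effect was positive for all 9 members with the deposited scaling, from 0.09 for C5ar1 to 0.71 for Cfb, with adjusted p-values of at least 0.988. With limma voom C5ar1 was at −0.09 in it. With the deposited scaling the median of all tested genes was 0.19 in that comparison, and 80.2% of them were positive. No member's difference between females and males, or between Bmp2 genotypes, passed over all genes at this sample size, which does not show that the groups respond alike.

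Within groups the members fell into sets that varied together. Over the 22 libraries, as deviations of log2(TPM + 1) from group means, C1qa correlated with C1qb at r = 0.98, with C1qc at 0.989 and with Cfp at 0.964. C3 correlated with C4b at 0.94, and C4b with Cfb at 0.915. C3ar1 stood apart from the C1q genes, at 0.216 with C1qa and 0.09 with Cfp, although across all libraries, groups included, its r with C1qa was 0.729. With all 24 libraries as labelled the r of C3ar1 was 0.541 with C1qa and 0.135 with Cfp within groups, so the low value with C1qa rests on leaving out the 2 libraries. C1qa then correlated at 0.966 with C1qb and 0.879 with Cfp, and C3 with C4b at 0.941. These are descriptions without a test, and the points share library depth and the scaling of each library. Kl/Kl female replicate 4 shows the separation, with C1qa at 10.2 TPM, the lowest of the 10 Kl/Kl libraries, and C3ar1 at 7.04 TPM, the third highest of them.

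**Figure D3:**
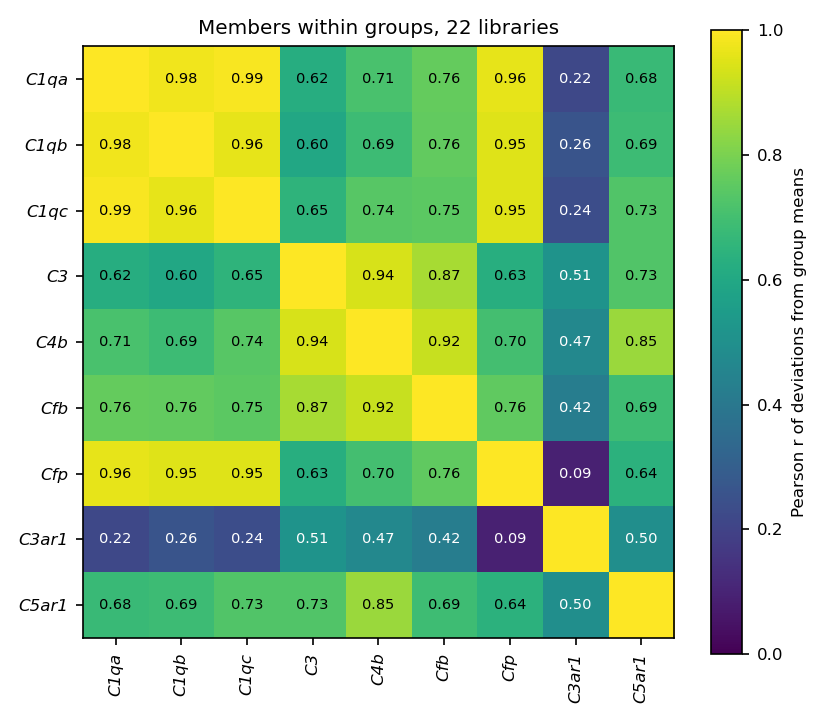
Pearson correlation between members over 22 libraries after subtraction of group means, from dark (0) to bright (1). The C1q chains with Cfp, and C3 with C4b and Cfb, form bright blocks, and C3ar1 has its lowest values with Cfp (0.09) and the C1q chains (0.216 to 0.26).

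The tested genes outside the 9 members whose pattern over the 22 libraries was most like each member were listed by Pearson r of log2(TPM + 1). For C1qa they were Ftl1-ps1 (0.977), Ftl1 (0.973), the ferritin light chain, and Aprt (0.963); Ftl1-ps1 is a processed copy of Ftl1 and its reads may be shared with it. C1qb was most like Ftl1 (0.967), Ftl1-ps1 (0.966) and Ctsa (0.961), and C1qc like Ftl1-ps1, Arpc1b and Clta (0.965 each). C3ar1 was most like Lilr4b (0.991), Cd300lb (0.986) and Lilrb4a (0.986), which encode receptors of the immunoglobulin superfamily on myeloid cells, and Lilr4b and Lilrb4a are close relatives. C5ar1 was most like Hal (0.96), Lgmn (0.952) and Slc11a1 (0.948). C4b was closest to C1ra (0.974), Tnip2 (0.953) and Csf1r (0.95), and Cfb to C1ra (0.952), Csf1r (0.945) and Adam8 (0.944). For C3 the genes were Sel1l (0.93), Rragc (0.902) and Il6st (0.897), and for Cfp Erp29 (0.941), Eif1 (0.93) and Arpc1b (0.917).

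Macrophage markers moved with the members. Of 14 markers 10 were tested, and 6 rose in Kl/Kl ∆UCS males, 6 in Bmp2+/+ males, 7 in females and 9 on average, where 0.537%, 1.04%, 2.61% and 23.7% of all genes were called higher. With all 24 libraries as labelled 0 passed in each stratum and 9 rose on average. Their summed level was 64.2 to 158 TPM in ∆UCS Kl/Kl and 14.8 to 35.8 TPM in ∆UCS control males, 143 to 252 and 13.2 to 47.9 TPM in Kl/Kl and control Bmp2+/+ males, and 214 to 288 and 14.9 to 23.6 TPM in Kl/Kl and control females. It was 32.7 and 19.5 TPM in the 2 libraries that were left out. None of the 14 was below 0.1 TPM in all of the 22 libraries. Cd68, a lysosomal glycoprotein of macrophages, averaged 29.4 ± 9.08 TPM in ∆UCS Kl/Kl and 3.01 ± 1.07 TPM in ∆UCS control males (SD, n = 4 each). It rose by 2.89, 3.36 and 3.97 in ∆UCS males, Bmp2+/+ males and females (limma adjusted p = 0.000206, 3.23e-05 and 2.06e-06), by more in each than any of the 9 members. With all 24 libraries the changes of Cd68 were 2.89, 2.64 and 3.03 (adjusted p = 0.151, 0.589 and 0.15). The part of these markers in the member changes was not tested.

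Relative to Cd68, C1qa was lower in Kl/Kl aortas, and such a comparison depends on the marker. On the log2 scale Cd68, Cd14, Mpeg1, Tyrobp, Fcer1g and Ctss changed by more than C1qa in each stratum. Csf1r, Cd163, Lyve1 and Laptm5 changed by less. For Csf1r the changes were 0.61, 0.79 and 1.32 in ∆UCS males, Bmp2+/+ males and females, against 1.40, 1.18 and 1.63 for C1qa. The ratio of C1qa to Cd68 TPM was 0.974 ± 0.415 in ∆UCS Kl/Kl and 3.13 ± 0.391 in ∆UCS control males (SD, n = 4 each), with lowest and highest values of 0.604 and 1.51 in Kl/Kl and 2.81 and 3.62 in controls. It was 0.623 ± 0.102 (SD, n = 3) and 3.62 ± 0.753 (SD, n = 4) in Kl/Kl and control Bmp2+/+ males, and 0.510 ± 0.215 (SD, n = 3) and 3.19 ± 0.523 (SD, n = 4) in Kl/Kl and control females. The groups did not overlap in any stratum, and the left-out libraries had ratios of 2.75 and 3.83. The ratio of C3ar1 to Cd68 overlapped between Kl/Kl and control libraries in Bmp2+/+ males (0.0721 to 0.170 and 0.0518 to 0.192) and in females (0.0857 to 0.181 and 0.142 to 0.267). In ∆UCS males it was 0.0678 to 0.0977 in Kl/Kl, below the 0.113 to 0.219 of controls. These ratios were chosen after their values were seen and carry no test.

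**Figure D4:**
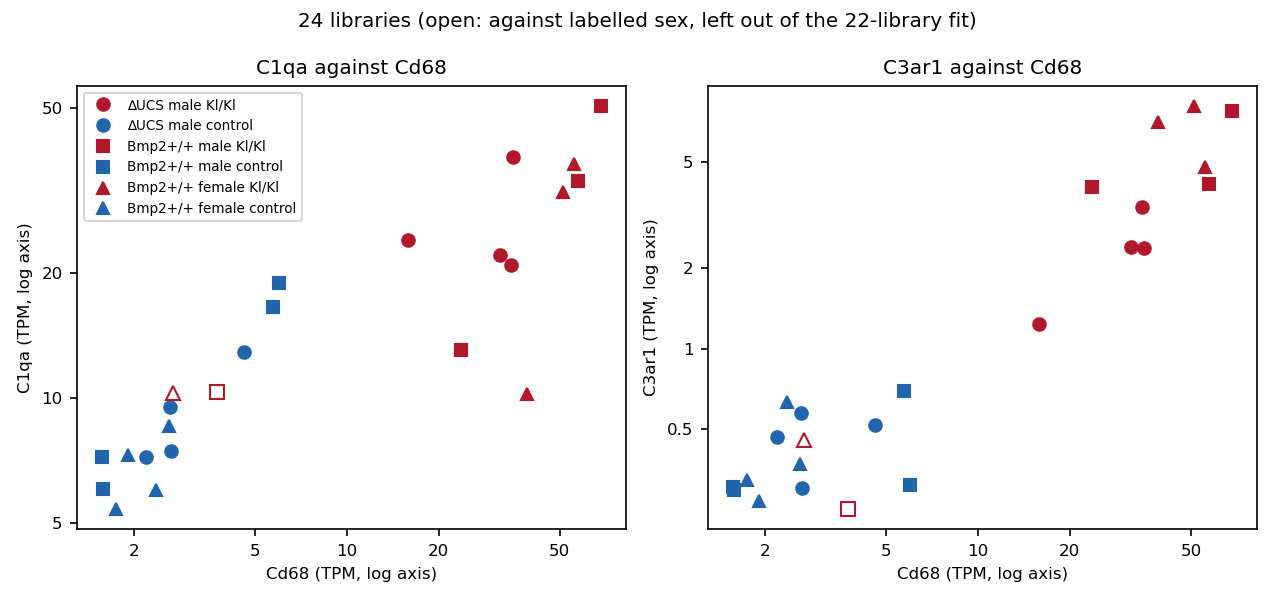
C1qa (left) and C3ar1 (right) against Cd68 in each library, in TPM on log axes, with open symbols for the 2 libraries against their labelled sex. The 10 filled Kl/Kl libraries have 15.9 to 68.2 TPM of Cd68 against 1.57 to 5.98 TPM in controls, and their C1qa overlaps that of controls in part, while the 2 open ones, at 3.76 and 2.69 TPM of Cd68, lie among the controls.

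Other cell types differed in part, and the shares of all tested genes stand beside them. Called higher were 0.537% of genes in ∆UCS males, 2.61% in females and 23.7% on average. With all 24 libraries these shares were 0.0%, 0.0% and 15.5%. Every Kl/Kl library lay above every control library for 8.2% of genes in ∆UCS males and 28.3% in females. Neutrophil markers summed to 4.64 to 29.7 TPM in ∆UCS Kl/Kl and 0.515 to 4.33 TPM in ∆UCS control males, without overlap. They overlapped in Bmp2+/+ males (5.48 to 52.3 TPM in Kl/Kl and 1.13 to 9.38 TPM in controls) and in females (4.12 to 22.6 TPM in Kl/Kl and 0.902 to 16.4 TPM in controls). Of 8 neutrophil markers 3 were tested, and 3 rose on average (2 with all 24 libraries). Airway epithelium markers, of tissue outside the vessel, summed to 989 to 2560 TPM in ∆UCS Kl/Kl and 6.52 to 921 TPM in ∆UCS control males, 553 to 2602 and 443 to 1900 TPM in Kl/Kl and control Bmp2+/+ males, and 2486 to 3415 and 270 to 1349 TPM in Kl/Kl and control females. Of 7 tested airway markers, 1 rose in Kl/Kl ∆UCS males and in females, and 3 on average (0, 0 and 2 with all 24 libraries). Fibroblast markers summed to 80.3 to 183 TPM in ∆UCS Kl/Kl and 71.9 to 165 TPM in ∆UCS control males, and to 76.6 to 211 and 69.4 to 147 TPM in Kl/Kl and control Bmp2+/+ males. In females they were 124 to 189 TPM in Kl/Kl and 67.2 to 93.8 TPM in controls, without overlap. On average 3 of 8 fibroblast markers rose (2 with all 24 libraries), against 23.7% of all genes (15.5%). Hepatocyte markers were low but higher in Kl/Kl without overlap in ∆UCS males (1.60 to 2.07 TPM in Kl/Kl and 0.440 to 0.942 TPM in controls) and in females (1.53 to 5.86 TPM in Kl/Kl and 0.290 to 0.458 TPM in controls). In Bmp2+/+ males they overlapped, at 1.02 to 3.74 TPM in Kl/Kl and 0.492 to 1.54 TPM in controls. Of 7 hepatocyte markers only Ahsg was tested, and it rose on average, while Ttr and Fgb were below 0.1 TPM in the 22 libraries. Adipocyte markers summed to 949 to 2147 TPM in the 22 libraries. T and NK cell markers summed to 0.578 to 147 TPM and B cell markers to 0.605 to 60.8 TPM. These sums overlapped between Kl/Kl and control libraries in each stratum. Within groups the r of members with the adipocyte gene Adipoq ran from 0.046 for C1qb to 0.648 for C4b, with C3 at 0.635. The part of RNA from all these other cell types in the member changes was not tested.

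The rest of the pathway was read from 5 lists of 52 complement genes, 43 of them not members, of which 16 were tested. On average over the strata 10 of these 16 rose and 1 fell, against 23.7% of all genes called higher, with a median change of 0.57. Single strata called 1 (Itgax) in ∆UCS males, 1 (Itgax) in Bmp2+/+ males and 2 (Itgax and Itgb2) in females. With the 24 libraries as labelled 0 were called in any stratum, and 8 rose and 1 fell on average. In the 22 libraries Itgax and Colec12 met the filter of 1 TPM only through Kl/Kl libraries, as controls reached at most 0.368 and 0.715 TPM. Cpn2 met it only through controls, as Kl/Kl libraries reached at most 0.960 TPM. These counts are therefore a description.

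Among the initiating genes 7 of 16 were tested, and all 7, the 3 C1q chains included, rose on average, against 23.7% of all genes. C1ra and C1s1, the proteases of the C1 complex, rose by 0.73 (SE 0.18, adjusted p = 0.00804) and 0.66 (SE 0.17, adjusted p = 0.0102), against 1.32 to 1.60 for the C1q chains. C1s1 averaged 8.76 ± 3.40 TPM in ∆UCS Kl/Kl and 6.97 ± 2.19 TPM in ∆UCS control males (SD, n = 4 each). Ficolin A (Fcna) rose by 0.78 (SE 0.22, adjusted p = 0.0167) and the scavenger collectin Colec12 by 0.36 (SE 0.09, adjusted p = 0.00927). With limma voom Fcna did not pass (adjusted p = 0.0535). Of 7 convertase genes 5 were tested and 2, C4b and Cfb, rose, against the same 23.7% of all genes. Adipsin (Cfd), the protease that activates factor B and a product of fat cells, had means of 614 TPM in ∆UCS Kl/Kl and 390 TPM in ∆UCS control males, and its average change of 0.63 (SE 0.27) had an adjusted p of 0.0902. Of 7 terminal genes only C8g passed the TPM filter, at −0.23 (SE 0.12, adjusted p = 0.164), and C7 was 0.0429 to 0.435 TPM. C8g fell by 0.42 with median-of-ratios scaling (adjusted p = 0.0157) and by 0.81 with limma voom (adjusted p = 0.0207). Voom, which tests lower genes, also called Hc, the gene of C5, higher by 2.41 (adjusted p = 0.000857) and C6 by 1.13 (adjusted p = 0.0437). It called 6.78% of 22071 genes higher. Hc and C6 were both near the floor, with group means of 0.0018 to 0.031 TPM for Hc and 0.0099 to 0.062 TPM for C6.

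Of 10 receptor genes 6 were tested and 5 rose on average, against 23.7% of all genes. Itgax, the alpha chain of complement receptor 4 and a marker of dendritic cells and some macrophages, was 0.775 to 4.93 TPM in ∆UCS Kl/Kl and 0.025 to 0.132 TPM in ∆UCS control males. Itgax rose by 1.85 (adjusted p = 0.00227) in ∆UCS males, 2.39 (adjusted p = 0.000195) in Bmp2+/+ males and 2.99 (adjusted p = 6.48e-06) in females. Its partner Itgb2 rose by 2.24 in females (SE 0.34, adjusted p = 0.000457) and by 1.64 on average (SE 0.19, adjusted p = 1.21e-05). With all 24 libraries as labelled the average rise was 1.97 for Itgax (adjusted p = 0.00198) and 1.40 for Itgb2 (adjusted p = 0.00263). Cr1l, the mouse regulator also known as Crry, rose by 0.30 on average (SE 0.10, adjusted p = 0.0326), but had an adjusted p of 0.381 with median-of-ratios scaling, while Cd93 changed by 0.52 (SE 0.19, adjusted p = 0.0508).

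Regulators, which hold the cascade in check, moved in both directions, where on average 23.7% of all genes were called higher and 351 of 9861 lower. Of 12, 6 were tested, and on average Serping1 (the C1 inhibitor, 0.74, SE 0.17, adjusted p = 0.00541), Clu (clusterin, 1.16, SE 0.34, adjusted p = 0.0194) and Cd55 (decay-accelerating factor, 0.41, SE 0.13, adjusted p = 0.0245) rose. Cd55 did not pass with median-of-ratios scaling (adjusted p = 0.0999), nor Serping1 with limma voom (adjusted p = 0.0618). Cpn2, a subunit of the carboxypeptidase that trims C3a and C5a, fell by 0.85 (SE 0.15, adjusted p = 0.00123) on average, and by 0.69 with all 24 libraries (adjusted p = 0.0181). It was 0.396 to 0.531 TPM in ∆UCS Kl/Kl and 0.974 to 2.66 TPM in ∆UCS control males, 0.162 to 0.960 and 0.631 to 2.42 TPM in Kl/Kl and control Bmp2+/+ males, and 0.313 to 0.348 and 0.450 to 1.68 TPM in Kl/Kl and control females. Cpn2 was thus lower without overlap in ∆UCS males and in females, and the share of all genes lower in this way was not counted. Vtn (0.15, SE 0.23, adjusted p = 0.641) and Cd59a (−0.08, SE 0.08, adjusted p = 0.475) did not pass.

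**Figure D5:**
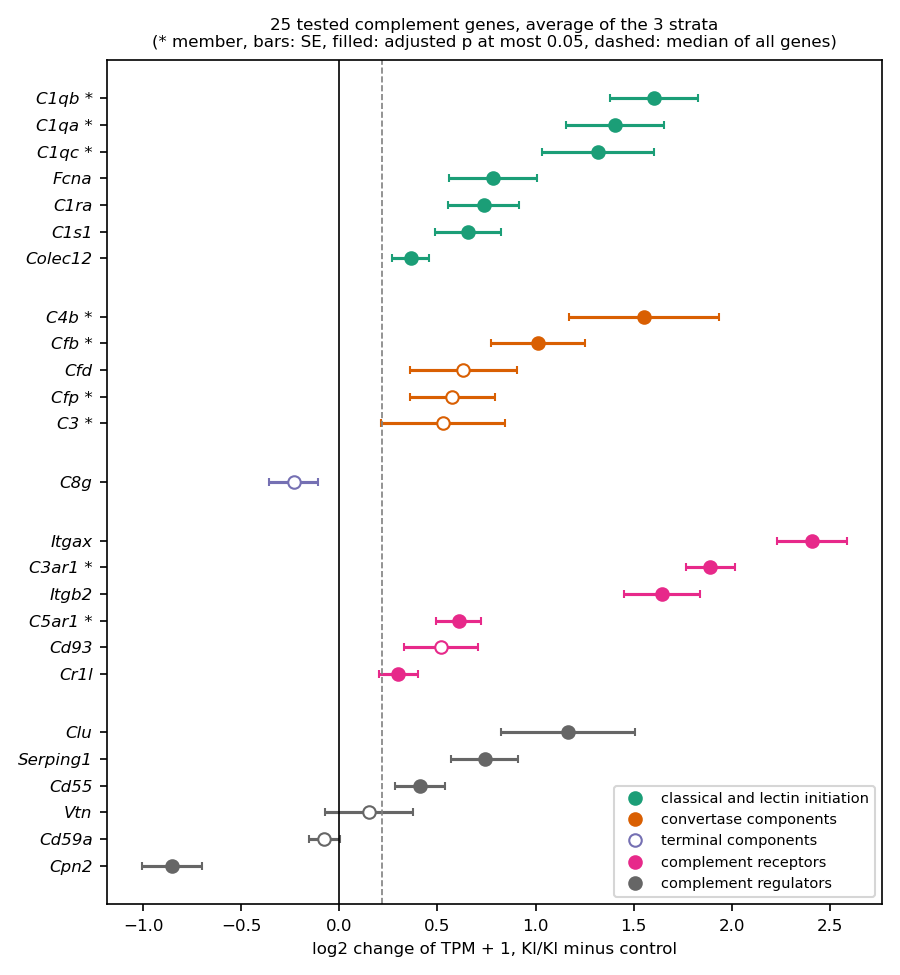
Average log2 change of TPM + 1 over the 3 strata, Kl/Kl minus control, of the 25 tested complement genes by role, with SE bars, filled symbols for an adjusted p of at most 0.05, asterisks for the 9 members and a dashed line at the median of all tested genes (0.22). Itgax (2.41) and C3ar1 (1.89) lie farthest to the right, and Cpn2 (−0.85) is the filled gene left of 0.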

How the data were processed

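The authors deposited 1 table of TPM per gene and library, from directional polyA libraries per the labels' protocols. The submitters' processing notes name Partek and the build mm39. No source used here gives the aligner, the annotation, whether counting used strand, or how reads matching several genes were handled. Each column sums to 482073, and the lowest values of a gene follow its genomic span plus a constant of 0.0001 read, which gave estimated reads (73.0% of values from 0.5 to 20 lay within 0.05 of a whole number). All 24 sample columns were used. Genes with TPM of at least 1 in at least 4 of 22 libraries (9861 genes) were fitted on log2(TPM + 1) with limma 3.58.1 in R 4.3.3 (trend), with 6 group means and library set as terms, and the average of the 3 strata as a contrast. P-values are two-sided and measure the spread between animals. All groups share 1 estimate of each gene's spread, so a library can alter the calls of a stratum that does not hold it. Alternatives were all 24 libraries, median-of-ratios scaling, limma voom on estimated reads (at least 10 reads in at least 4 libraries), pseudocount 0.1, no filter, TPM of at least 5, no library set, library set 1 alone, a replicate block and leaving out each library. The fit was tested on simulated data. Named genes were the members, complement-list genes that were called, the 2 of each role list with the highest mean TPM and the 3 genes most like each member. One complement gene was left out of the lists and is not reported here. Members and lists were chosen with earlier results of these data known.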

Additional observations from a re-analysis of the deposited data

Results flagged for a closer look

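In 54 sets of 4 libraries (9 members in 6 groups, as labelled), 2 held a library whose gap to its nearest neighbour passed Dixon's 95% critical value. That is a smaller share than the about 1 in 20 that chance gives. Both were Bmp2+/+ control male replicate 1, the one animal that was wild type for Klotho, so genotype and animal cannot be told apart. C3ar1 was 0.698 TPM there, against 0.297 to 0.310 TPM in the other control males (gap over range 0.963). C5ar1 was 0.387 TPM there, against 0.133 to 0.147 TPM in the others (0.940). Without this library the change of C3ar1 in Kl/Kl Bmp2+/+ males kept its direction and its call.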

How the results depend on the processing

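Each count of members called was recomputed under the alternatives, for Kl/Kl against control in Bmp2+/+ males, females, ∆UCS males and on average. The 2 libraries against their labelled sex decided the stratum counts of 1, 2 and 1: with all 24 as labelled they were 0, 0 and 0, with each scaling and with voom. Why these 2 libraries differ was not tested. Neither is a ∆UCS library, and in ∆UCS males the change of C3ar1 was 1.16 in both fits. Its SE went from 0.21 to 0.46, because all groups share 1 estimate of each gene's spread. With 22 libraries, median-of-ratios scaling gave 3 in Bmp2+/+ males and 5 in females, voom gave 3 and 4, and a filter of 5 TPM, which drops C3ar1 and C5ar1, gave 0 in Bmp2+/+ males and 2 in ∆UCS males, where 1.25% and 7.32% of genes were called higher. Leaving out 1 library gave 1 to 5 in Bmp2+/+ males, 1 to 7 in females, 1 to 3 in ∆UCS males and 5 to 8 on average, while the share of all genes called higher ran from 0.348% to 4.06%, 1.31% to 5.94%, 0.355% to 3.39% and 7.37% to 38.9%. Without Bmp2+/+ Kl/Kl male replicate 3 the counts were 5, 7, 3 and 8, and the shares 4.06%, 5.94%, 1.45% and 38.9%. Without Kl/Kl female replicate 4 the count in females was also 7 (3.59% of genes), and without Bmp2+/+ Kl/Kl male replicate 4 that in ∆UCS males was also 3 (3.39%). In females the count was 4 without ∆UCS Kl/Kl replicate 1 or Bmp2+/+ Kl/Kl male replicate 4, 5 without ∆UCS Kl/Kl replicate 4, and 1 without Kl/Kl female replicate 1 or 3. The average count was 5 without Bmp2+/+ Kl/Kl male replicate 4, where C5ar1 was below the filter. The change of Cfp in Bmp2+/+ males turned to −0.30 in library set 1 alone, and ranged from −0.30 (without Kl/Kl replicate 4) to 0.78 (without Kl/Kl replicate 3) with 1 library left out. That of C3 in ∆UCS males turned to −0.11 with median-of-ratios scaling of 22 or 24 libraries and to −0.14 with voom on either, and ranged from −0.0885 (without Kl/Kl replicate 2; −0.0792 without control replicate 2) to 0.71 (without Kl/Kl replicate 4) with 1 library left out. Of 1088 recomputed values of other differences between genotypes or sexes, 60 changed sign and 0 were called. A replicate block gave the same counts of 1, 2, 1 and 7 and 0 for each difference, and replicate numbers did not pair the libraries (correlations of −0.478 to 0.321). C5ar1 and C3ar1 rest on the fewest reads, at 53 and 56 in the lowest library.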
